A study of Ovis aries with 2 samples.

Results

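Cells that carried both FGF8 and CDX2, genes of the embryonic tail end, were examined in single-cell RNA sequencing data of sheep embryos at embryonic day 16. The place of the cells in the embryo was not measured. The cells were chosen by their measured UMIs (molecules, each counted once by its barcode) of 4 genes. A cell was taken when it had at least 1 UMI of FGF8 and at least 1 of CDX2, and 0 of TBX6 and of MSGN1, which mark cells already turning into presomitic mesoderm. The Hulunbuir library held 543 such cells among 9583 kept cells (5.67%, exact binomial interval 5.21 to 6.15). The Ujumqin library held 6 among 14554 (0.0412%, interval 0.0151 to 0.0897). Both libraries together gave 549 of 24137 kept cells. All intervals here are at the 95% level and cover counting error only.

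Each breed, Ujumqin and the Hulunbuir short-tail sheep, was represented by 1 library of pooled 16-day embryos, with no map from cells to embryos. The ewes had been synchronized with a progesterone sponge and PMSG, extraembryonic tissue was taken off, and red blood cells were lysed after enzymatic dissociation. With 1 library a breed, breed, embryo pool, dissection and sequencing run cannot be told apart, and no difference has a replicate check. No test was made, so folds are descriptions of these libraries, and a gene is counted as higher or lower when its level differed at least 2-fold.

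In vertebrate embryos the trunk and tail are laid down from head to tail by a pool of progenitors at the caudal end, first in the caudal epiblast and later in the tail bud. FGF8 and WNT ligands keep these cells undifferentiated, CDX factors give them posterior identity through the HOX genes, and CYP26A1 destroys retinoic acid that would drive them to differentiate. Some of them, called neuromesodermal progenitors, carry both SOX2 and brachyury (listed here as T) and can give rise to spinal cord and to presomitic mesoderm.

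The Hulunbuir cells with FGF8 and CDX2 had a median of 13093 UMIs and 2260 genes, against 11705 UMIs and 2168 genes in the other kept Hulunbuir cells. The 6 Ujumqin cells had 8018 to 130547 UMIs, with a median of 39037. The libraries summed to 212933364 UMIs in Ujumqin and 131385353 in Hulunbuir. Kept barcodes occurring in both libraries numbered 50, among them 6 of the Hulunbuir cells with FGF8 and CDX2 and 0 of the Ujumqin ones. Of the 543 cells, 45 (8.29%, interval 6.11 to 10.9) had doublet scores as high as the number expected from the loading, against 9.68% of the other cells.

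The 4 genes of the rule are given as a description. FGF8, the ligand that marks the caudal end, had a median of 3 UMIs and at most 32 in the Hulunbuir cells. CDX2, a homeobox factor of posterior identity, had a median of 1 and at most 10. At the edge of the rule, 60 of the 543 cells had 1 UMI of each, whereas 208 had at least 2 of both. Just outside it lay 442 cells with FGF8 and no CDX2, 1130 cells with CDX2 and no FGF8, and 51 cells with both that also had TBX6 or MSGN1. In 46 of these 51 cells TBX6 and MSGN1 together came to 1 UMI, so that the border on the mesoderm side was set by single molecules. The 543 cells held 60.1% of all FGF8 UMIs and 32.2% of all CDX2 UMIs of the kept Hulunbuir cells. In Ujumqin, FGF8 was found in 79 cells and CDX2 in 107, and 6 cells had both.

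The rule did not use 5 further markers of caudal progenitors, but these were chosen with earlier results of these data known. Their levels describe the cells and are no independent check of the name. WNT5B, a noncanonical WNT ligand of the tail end, was at 242 UMIs per 1000000 UMIs (CPM), against 23.0 in the other kept Hulunbuir cells, a log2 ratio of 3.39 (interval 3.31 to 3.48). CYP26A1 was at 47.6 CPM against 2.67, a log2 ratio of 4.16 (interval 3.94 to 4.38). T was at 7.88 CPM against 0.497, a log2 ratio of 3.99 (interval 3.45 to 4.52), from 63 UMIs. T passed the minimum of 100 UMIs only through the FGF8 and CDX2 cells, with 60 UMIs in all the others, and its ratio is given as a description. WNT5B and CYP26A1 did not need them to pass. WNT3A, a canonical WNT ligand of the caudal epiblast, was seen in 15 of the 543 cells and NKX1-2, a homeobox factor of the same region, in 7, each at 1 UMI per cell. Their log2 ratios of 4.65 and 4.72 pointed the same way but rested on these few molecules. WNT5B was found in 86.6% of the cells, CYP26A1 in 33.7% and T in 10.3%. In 121 Hulunbuir cells with the endothelial genes PECAM1 and CDH5, a reference chosen after seeing the data that should lack these markers, the shares were 5.79%, 0% and 0%. Thinned to 5000 UMIs per cell, the shares were 66.5%, 19.7% and 4.78% in the FGF8 and CDX2 cells, and 0.855%, 0% and 0% in the endothelial ones.

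**Figure D1:**
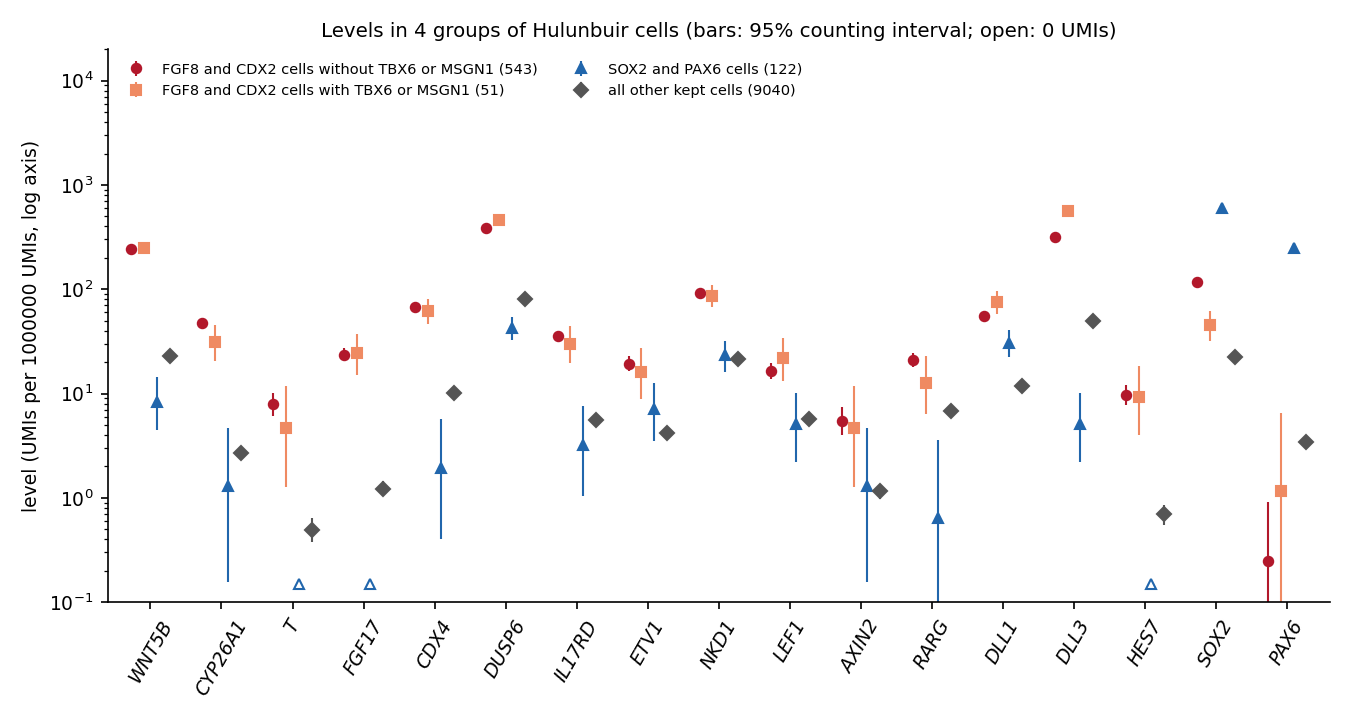
Level in UMIs per 1000000 UMIs (log axis) of 17 genes in 4 groups of Hulunbuir cells, with 95% counting intervals; open symbols at the foot stand for 0 UMIs. The FGF8 and CDX2 cells with and without TBX6 or MSGN1 lie close together for most genes, as for WNT5B (251 and 242), and far above the SOX2 and PAX6 cells (8.39), while SOX2 and PAX6, which chose the last group, run the other way.

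Against the other kept Hulunbuir cells, 7970 genes with at least 100 UMIs could be compared. Of these, 5.16% were at least 2-fold higher in the FGF8 and CDX2 cells and 10.1% at least 2-fold lower, and the median log2 ratio over all of them was -0.08. The counts of the gene groups that follow are to be read beside these shares. Genes with under 100 UMIs are not among the counts. T, WNT5A, TCF7, HES7, SNAI1 and HOXC5 had under 100 UMIs outside the FGF8 and CDX2 cells, so that the counts that hold them lean to higher. RARA and FGB also had under 100 UMIs there, but neither was counted as higher.

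Of the FGF ligands, FGF17, which works beside FGF8 in the tail bud, was the only one besides FGF8 that could be compared. It was at 23.6 CPM against 1.23, a log2 ratio of 4.27 (interval 3.95 to 4.59). FGF4 had 10 UMIs in the 543 cells, of 33 in all kept Hulunbuir cells. The other ligands of the list had 5 or fewer in the 543 cells. Among the receptors, FGFR1, the main receptor of mesoderm progenitors, was higher, at 54.5 against 24.0 CPM (log2 ratio 1.19, interval 1.04 to 1.33). FGFR2 was lower, at 1.88 against 5.05 CPM (log2 ratio -1.43, interval -2.27 to -0.69).

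Genes that respond to FGF signalling were higher in 5 of 9 compared and lower in 0, with a median log2 ratio of 1.85. DUSP6, a phosphatase that switches off ERK, was at 387 against 81.1 CPM, a log2 ratio of 2.25 (interval 2.20 to 2.31), and was found in 96.3% of the cells. IL17RD, a membrane inhibitor of FGF signalling, was at 35.3 against 5.59 CPM (log2 ratio 2.66). The other 3 were SPRY2, a further inhibitor, with a log2 ratio of 2.31, and the ETS factors ETV1 (2.22) and ETV5 (1.85). DUSP4, SPRY1, SPRED1 and SPRED2 stayed between 0.10 and 0.71 on the log2 scale.

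Among WNT ligands other than WNT5B, WNT5A had 22 UMIs and a log2 ratio of 1.85, and WNT2B had 7 and a log2 ratio of -1.25. WNT8A, a canonical ligand of the caudal epiblast, had 8 UMIs in the 543 cells, of 16 in all kept Hulunbuir cells. A further 6 ligands of the list had 0, and each of these had 7 or fewer in all kept cells. Genes that respond to canonical WNT signalling were higher in 5 of 7 compared and lower in 0, with a median log2 ratio of 1.61. NKD1, a negative feedback gene, was at 92.0 against 21.4 CPM (log2 ratio 2.11, interval 1.99 to 2.22) and was found in 66.9% of the cells. TCF7 and LEF1, the DNA-binding factors of the pathway, had log2 ratios of 2.63 and 1.54. AXIN2, another feedback gene, had 2.25 from 44 UMIs, and the receptor FZD10 had 1.61. The list members ZNRF3 (0.30) and CCND1 (0.77) did not reach 2-fold.

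CDX4, the second CDX factor of the tail end, was at 67.5 against 10.0 CPM, a log2 ratio of 2.75 (interval 2.60 to 2.90), and was found in 59.5% of the cells. CDX1 had 2 UMIs in the 543 cells, of 8 in all kept Hulunbuir cells. MIXL1, a factor of the primitive streak, had 9 of 19, and EOMES had 0 of 1. TBX3, a T-box factor of limb and other tissues, was at 3.38 against 8.73 CPM (log2 ratio -1.37, interval -1.98 to -0.82).

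HOX genes, which record position along the body, were higher in 20 of 29 compared and lower in 5, with a median log2 ratio of 1.43. The higher ones belonged to paralog groups 1 to 9, and the 5 lower ones were HOXA11, HOXC11, HOXC12, HOXA13 and HOXD13. Summed over paralog group 9, the most expressed group, the level was 238 CPM in the FGF8 and CDX2 cells and 87.6 in the other cells. Summed over group 10 it was 8.0 CPM (interval 6.16 to 10.2) against 5.12. Over group 11 it was 7.75 against 51.6, over group 12 it was 1.00 against 8.21 and over group 13 it was 2.00 against 14.7 CPM. The order of the groups thus broke between 10 and 11. Up to group 10 the FGF8 and CDX2 cells stood above the other kept cells as a whole, and from group 11 below them. The low level at group 11 was not particular to them. It was 7.79 CPM in the cells with FGF8 and no CDX2, 3.47 in the FGF8 and CDX2 cells with TBX6 or MSGN1 and 7.74 in the SOX2 and PAX6 cells. In the cells with CDX2 and no FGF8, groups 10 and 11 stood at 21.5 and 30.9 CPM. HOXC12 was at 1.00 against 8.18 CPM (log2 ratio -3.03, interval -4.25 to -2.05), HOXA13 at 1.75 against 13.4 CPM (-2.94, interval -3.81 to -2.19) and HOXA11, with the most UMIs, at 7.504 against 50.7 CPM (log2 ratio -2.76, interval -3.15 to -2.39). Of these HOX genes HOXC11 had 2 UMIs in the 543 cells, and its interval, -4.93 to 0.02, reached past 0. HOX genes that overlap within a cluster can share reads, and single members are uncertain to that extent.

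**Figure D2:**
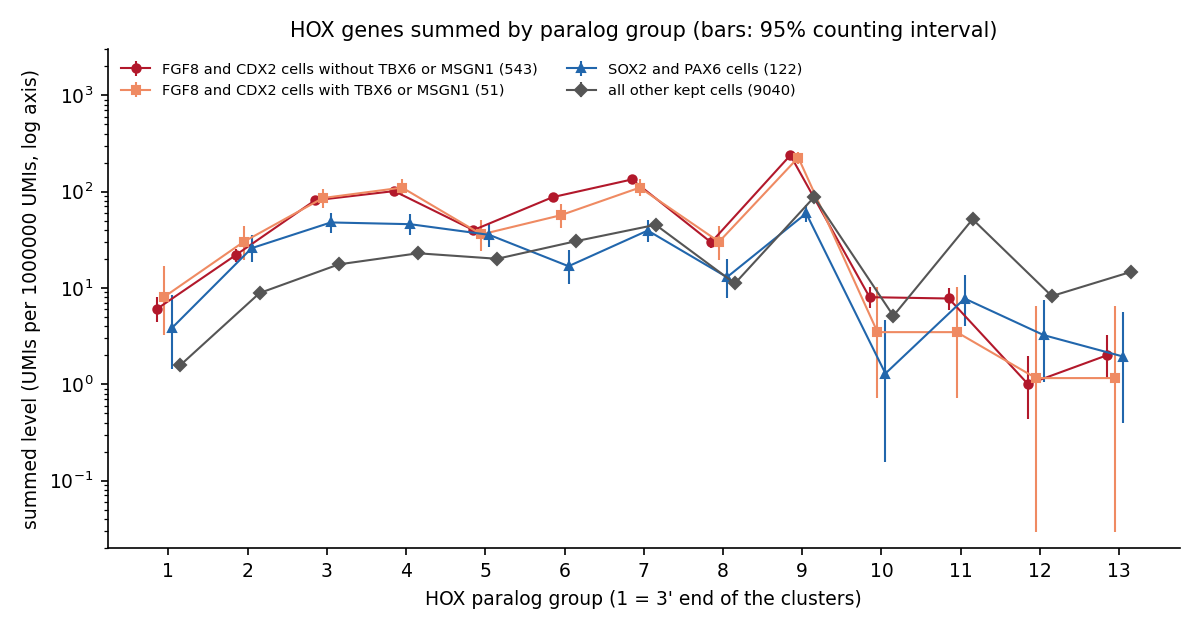
Summed level of HOX genes in UMIs per 1000000 UMIs (log axis) by paralog group in 4 groups of Hulunbuir cells, with 95% counting intervals. The FGF8 and CDX2 cells peak at group 9 (238) and drop to 8.0 at group 10, whereas the other kept cells stand at 51.6 in group 11. The cells with TBX6 or MSGN1 (3.47) and the SOX2 and PAX6 cells (7.74) are low at group 11 too.

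Retinoic acid genes were split, with 4 of 9 higher and 3 lower. Beside CYP26A1, the higher ones were RARG, a retinoic acid receptor, at 21.0 against 6.85 CPM (log2 ratio 1.62), and the binding proteins CRABP1, at 1740.1 against 334 CPM (2.38), and CRABP2, at 697 against 153 CPM (2.19). The lower ones were ALDH1A2, the enzyme that makes retinoic acid (4 UMIs, log2 ratio -2.44, interval -4.32 to -1.07), the receptor RARB (5 UMIs, -2.53, interval -4.16 to -1.30) and DHRS3, which returns retinaldehyde to retinol. DHRS3 had 0 UMIs in the 543 cells, against 1.03 CPM, and was lower by at least 1.45 on the log2 scale with 3 UMIs taken as the floor. Its log2 value was under 2-fold in 2 other settings. It was -0.23 with at least 2 UMIs of FGF8 and of CDX2, and -0.07 with the rule after thinning. The synthesizing enzyme and the degrading enzyme therefore lay on opposite sides.

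Notch and segmentation genes were higher in 4 of 11 and lower in 4. The Notch ligands DLL1 and DLL3 were at 55.4 against 11.7 CPM (log2 ratio 2.24) and 315 against 49.8 CPM (2.66). HES7, an oscillating repressor of the segmentation clock, was at 9.76 against 0.696 CPM (3.81, interval 3.35 to 4.27), and LFNG, which modifies Notch, had 1.94. HES7 was found in 67 cells (12.3%). Of the presomitic mesoderm markers outside the rule, 3 of 4 were higher and RIPPLY2 was lower. RIPPLY2 and MEOX1, genes of cells forming or past the somite border, had log2 ratios of -1.28 and -1.42, HES1 had -1.79, and NOTCH1 had -1.16 from 3 UMIs with an interval that held 0.

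Genes tied to axis extension were higher in 3 of 9 and lower in 0. LIN28A, an RNA-binding protein that keeps cells immature, was at 58.7 against 26.1 CPM (log2 ratio 1.17), and GDF11, a ligand that sets the trunk to tail transition, at 10.5 against 3.00 CPM (1.81). LIN28B did not follow LIN28A, at 205 against 232 CPM (-0.18). POU5F1, the pluripotency factor, had 22 UMIs and a log2 ratio of -0.27 (interval -0.96 to 0.35).

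SOX2, the neural and neuromesodermal factor, was found in 271 of the 543 cells (49.9%) and was at 117 against 22.5 CPM (log2 ratio 2.37, interval 2.26 to 2.48). Of 7 neural factors compared, 3 were higher, SOX2, the neural plate factor ZIC2 (1.97) and the dorsal factor PAX3 (1.83), and 3 were lower, PAX6 (-3.78, from 2 UMIs), IRX3 (-1.70) and IRX5 (-1.28). Spinal cord markers were higher in 1 of 4 and lower in 2. SOX2 and T were both found in 37 cells (6.81%, interval 4.84 to 9.27), SOX2 alone in 234, T alone in 19 and neither in 253. T was thus found in 13.7% of the cells with SOX2 (interval 9.80 to 18.3) and in 6.99% of those without (interval 4.26 to 10.7). Thinned to 5000 UMIs per cell, 9 cells had both, 169 SOX2 alone, 16 T alone and 329 neither. T was then about as frequent with SOX2 as without. The share with both depended on depth. It was 1.72% in 523 cells thinned to 5000 UMIs and 0.558% in 538 thinned to 2000, and it was 12.0% among the cells with at least 2 UMIs of FGF8 and of CDX2. In the endothelial cells SOX2 was found in 1.65% and T in 0%.

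The cells with and without SOX2 differed in more than SOX2. Median UMIs were 13706 and 12591. DLL3 was found in 52.0% of the cells with SOX2 and in 82.4% of those without, at 141 and 507 CPM (log2 ratio -1.84, interval -1.98 to -1.71). CXCR4, a chemokine receptor of migrating cells, was at 32.4 and 120.2 CPM (log2 ratio -1.89). PRR13, INKA1 and LOXL1, a lysyl oxidase, also lay between -1.63 and -1.65. On the other side, CYP26A1 was found in 48.3% of the cells with SOX2 and in 19.1% of those without, with a log2 ratio of 1.68 (interval 1.32 to 2.04).

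EPCAM, an adhesion protein of epithelia, was at 151 CPM with SOX2 and 65.3 without (log2 ratio 1.21), CLDN7, of tight junctions, had 2.00 and DSP, of desmosomes, had 0.91. The epithelial keratins KRT8 (0.02), KRT18 (0.10) and KRT19 (0.32) differed little. APOA1, an apolipoprotein, had 2.31 and was found in 49.4% against 17.6% of the cells. STMN2, a microtubule regulator of neurons, had 2.26, CKB, a creatine kinase of neural tissue, 1.36, ZIC2, a neural plate factor, 1.28 and BMP7 1.11. DUSP6 (0.13) and FGF17 (-0.31) differed little between these cells. FGF8 itself was at a log2 ratio of 0.53 and T at 0.85.

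**Figure D3:**
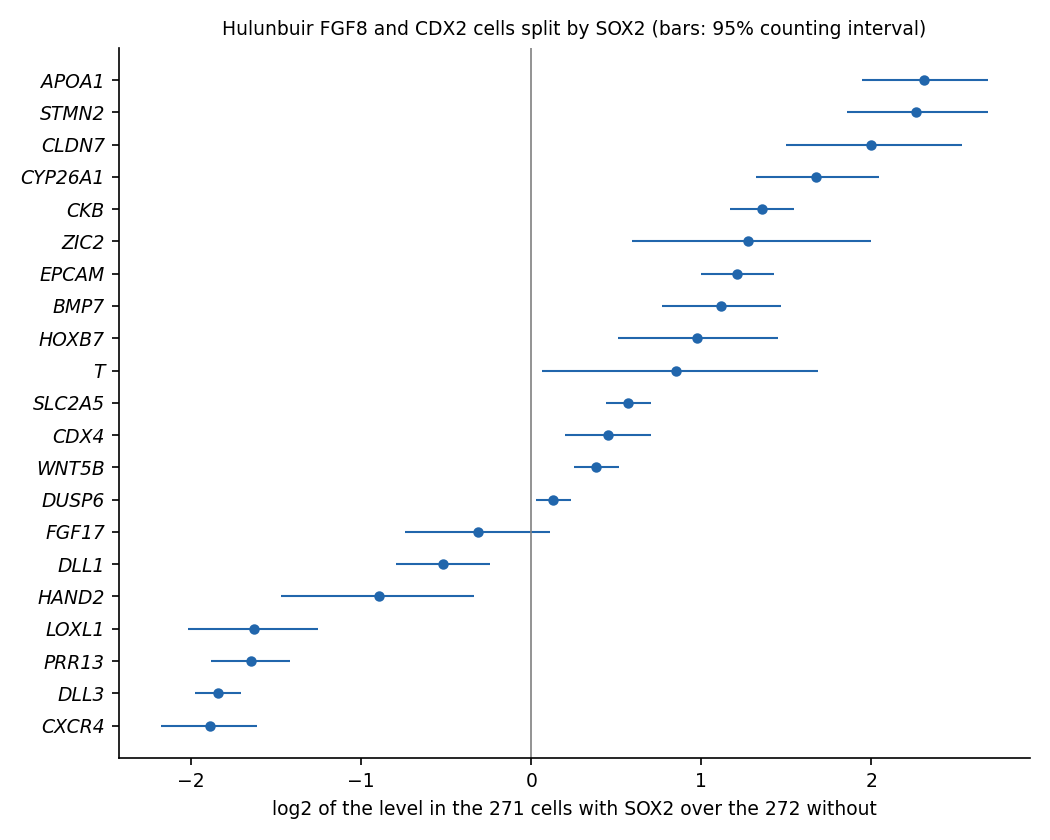
Log2 ratio of the level in the 271 Hulunbuir FGF8 and CDX2 cells with SOX2 over the 272 without, for 21 genes, with 95% counting intervals. DLL3 (-1.84) and CXCR4 (-1.89) stand at one end and APOA1 (2.31), STMN2 (2.26) and CLDN7 (2.00) at the other, with DUSP6 (0.13) near 0.

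Cells with T, 56 in number, were compared with the 487 without, for the genes outside the rule. CYP26A1 was found in 58.9% of the cells with T (interval 45.0 to 71.9) and in 30.8% of those without (interval 26.7 to 35.1), and its level was 93.1 against 41.9 CPM (log2 ratio 1.15). COL1A1 (-1.93) and CXCR4 (-1.47) were lower beside T. YAP1, the effector of Hippo signalling, had 0.97 from 22 UMIs beside T. FN1 stood at 2.30, but 32 of its 42 UMIs beside T came from 1 cell.

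The 543 cells were next split at the median of their FGF8 level, which the rule used, so that this is a description of how the cells vary. CYP26A1 was at 80.6 CPM in the upper part and 20.7 in the lower (log2 ratio 1.96), T at 13.3 and 3.41 (1.97), HES7 at 15.6 and 5.00 (1.64) and GDF11 at 15.6 and 6.37 (1.29). WNT5B (1.04) and NKD1 (0.85) also went with FGF8. Genes lower in the upper part included COL1A2 at -2.77, DCN at -2.41, HAND2 at -2.18, LUM at -2.12 and HOXA11 at -1.86. Most UMIs of these lower genes came from the cells outside clusters 7, 9 and 16, described below.

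The cells carrying only 1 of FGF8 and CDX2 were set beside those carrying both. WNT5B was at 242 CPM in the cells with FGF8 and CDX2, 163 in those with FGF8 only and 60.1 in those with CDX2 only. For CYP26A1 the levels were 47.6, 27.5 and 4.23 CPM, and for T 7.88, 5.80 and 0.35. KRT18 ran the other way, at 784, 694 and 4762 CPM, as did PITX1, a factor of hindlimb and caudal lateral mesoderm, at 4.002, 3.44 and 40.2. HOX genes had another order. Their group 9 sum was 238 CPM in the cells with both, 189.5 with FGF8 only and 226 with CDX2 only, and their group 7 sum was 133, 109 and 129 CPM.

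The 51 cells with FGF8, CDX2 and TBX6 or MSGN1 were few, and this limits the comparison with them. Of 7044 genes compared, 7.33% (516) were at least 2-fold higher in the 543 cells and 4.77% (336) at least 2-fold lower, but the counting interval held 0 for 427 and 277 of these. With the rule applied after thinning, the balance turned to 292 higher and 809 lower of 4782. WNT5B was at 242 and 251 CPM. Of the FGF response genes 0 of 9 and of the WNT response genes 0 of 7 were at least 2-fold different, counts near the background. Of the HOX genes 1 of 26 was, HOXA11, from 3 UMIs in the 51 cells. Neural factors were higher in 3 of 5 and spinal cord markers in 3 of 3, the same genes in both lists (SOX2, FABP7 and IRX3). Lateral plate and allantois markers were higher in 3 of 5. Among these, FABP7, IRX3, PITX1 and FOXF1 had 3 or fewer UMIs in the 51 cells and intervals that held 0. HAND2 (2.09, interval 0.51 to 4.39) also rested on 3 UMIs there. It fell to 0.92 without the highest doublet scores and to 0.53 with at least 2 UMIs of FGF8 and of CDX2. With both groups limited to the pair of clusters that held most of the 543 cells, it fell to 0.36.

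SOX2 was higher without TBX6 or MSGN1, at 117 against 45.1 CPM (log2 ratio 1.37, interval 0.91 to 1.87). It fell under 2-fold, to 0.78, with at least 2 UMIs of FGF8 and of CDX2, to 0.63 with the rule after thinning, and to 0.72 with both groups limited to the pair of clusters that held most of the 543 cells. CXCR4 was lower, at 74.0 against 171 CPM (-1.21, interval -1.47 to -0.94), and lay between -2.30 and -0.93 over these settings. DLL3 was at 315 against 559 CPM (-0.83, interval -0.97 to -0.68). LFNG had -1.13 from 9 UMIs in the 51 cells, with an interval (-2.21 to 0.10) that held 0. COL1A1 was at 69.5 against 10.4 CPM (2.74, interval 1.80 to 3.88), from 9 UMIs in the 51 cells. Its level in the FGF8 and CDX2 cells of clusters 7, 9 and 16 was 33.4, 13.9 and 12.9 CPM, so that 105, 24 and 18 of its 556 UMIs came from these 209, 155 and 93 cells. Its ratio was 1.71 without the highest doublet scores and 0.68 with the rule after thinning. It was 3.595 with at least 2 UMIs of FGF8 and of CDX2, and 2.615 with both groups limited to the same pair of clusters. The summed lateral plate and allantois markers were at 68.9 CPM in the 543 cells, with 0 of 8 at 0 UMIs, and at 42.8 CPM in the 51, with 4 of 8 at 0. Their part in these differences was not tested.

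On the neural side, 122 cells with SOX2 and PAX6 and no FGF8, TBX6 or MSGN1 served as a neural reference. Of 7533 genes compared, 10.4% (781) were at least 2-fold higher in the FGF8 and CDX2 cells and 7.45% (561) at least 2-fold lower, and the counting interval held 0 for 424 and 271 of these. DLL3 was at 315 against 5.16 CPM (log2 ratio 5.93), WNT5B at 242 against 8.39 (4.85), CDX4 at 67.5 against 1.94 (5.12) and HOXC9 at 111 against 1.94 (5.84). CYP26A1 had 2 UMIs in the neural cells and a log2 ratio of 5.21. T, FGF17 and HES7 had 0 UMIs there and were higher by at least 2.02, 3.61 and 2.33 on the log2 scale.

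HOX genes were higher in 13 of 26 and lower in 2 against the neural cells, with group 9 summing to 238 against 59.4 CPM. IRX3, a factor of the closed neural tube, was at 3.63 against 148 CPM (-5.35), FABP7, of radial glia, had -2.37 and STMN2 -3.95. CKB (-3.44) and VIM (-1.41), an intermediate filament, were lower as well. CRABP1, by contrast, was at 1740.1 and 1847 CPM (-0.09), and PAX3 at 33.5 and 50.98 CPM (-0.61). SOX2 (117 against 605 CPM) and PAX6 (0.25 against 250.4 CPM) chose the neural cells and are given as a description. FGF response genes were higher in 4 of 8 and lower in 1 (SPRED2, -1.32), and WNT response genes were higher in 4 of 7 and lower in 1 (ZNRF3, -1.29). The higher WNT response genes again held TCF7, which passed the minimum of UMIs only through the FGF8 and CDX2 cells. AXIN2 and TCF7 had 2 UMIs each in the neural cells, and the interval of TCF7 (-0.24 to 4.82) held 0. With the rule after thinning, SPRY2 (0.76), ETV1 (0.94), AXIN2 (0.84), TCF7 (0.395) and ZNRF3 (-0.73) fell under 2-fold.

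Lateral plate and allantois markers were lower in 7 of 8 than in the other cells, with a median log2 ratio of -2.73, among them TBX4 (-2.79), PITX1 (-2.66) and HAND1 (-3.50). Gut endoderm markers were lower in 4 of 5, with KRT18 at 784 against 3091 CPM (-1.98), GATA6 at -3.87 and GATA4 at -3.96 (2 UMIs), whereas EPCAM was higher (1.81). FOXA1, FOXA3, SOX17 and SPINK1 had 0 UMIs, but all kept Hulunbuir cells held only 11, 3, 8 and 4. Such few UMIs cannot show that these genes were absent. Extraembryonic endoderm markers were lower in 5 of 6, with AHSG at 0.625 against 36.9 CPM (-5.88). Erythroid markers summed to 1.00 against 1.34 CPM, with 5 of 6 at 0, and 0 of 1 compared was at least 2-fold different. Of the node and notochord markers, NOTO, SHH and FOXA2 had 6, 3 and 4 UMIs. All kept Hulunbuir cells held 13, 9 and 13, too few to be compared.

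Adhesion genes split along epithelial and mesenchymal lines only in part. CDH2, the neural and mesodermal cadherin, was at 50.2 against 12.4 CPM (log2 ratio 2.01), EPHA4, an ephrin receptor, at 45.8 against 14.7 (1.64) and EPCAM at 110.4 against 31.4 (1.81). SNAI1 (1.52, from 18 UMIs) was higher and SNAI2 (-3.91, from 2 UMIs) lower, both repressors of epithelial genes. TWIST1, a mesenchymal factor, was at 6.503 against 40.2 CPM (-2.63). The collagens COL1A1 (-2.61) and COL1A2 (-3.08) and the matrix proteins LUM (-3.13) and DCN (-2.94) were among the 10 lowest genes with at least 50 CPM in the other cells.

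Several genes outside the lists had high ratios too. SLC2A5, the fructose transporter GLUT5, was at 247 against 16.7 CPM (log2 ratio 3.88, interval 3.79 to 3.97). Against the neural cells its log2 ratio was 3.72. ERICH2 had 3.03, LSAMP, a neural cell adhesion protein, 2.99 and RCN2, a calcium-binding protein of the endoplasmic reticulum, 2.93. Of the glycolysis genes, 0 of 16 were at least 2-fold different either way, with a median of -0.04. SLC2A1 had 0.31, PGK1 0.50 and GAPDH 0.02.

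Cell cycle genes were at least 2-fold different in 0 of 11, with TOP2A at 600 against 440 CPM (0.45) and PCNA at 0.12. Hippo pathway genes were higher in 0 of 18 and lower in 2, TEAD4 (-2.06), a DNA-binding partner of YAP1, and AMOT (-1.63), while YAP1 had 0.06. BMP genes were higher in 0 of 10 and lower in 2, BMP5 (-2.12) and BMP2 (-1.05, from 7 UMIs, with an interval that held 0). BMP4 was at 40.3 against 39.5 CPM (0.03) and the target ID1 at 1072 against 815 CPM (0.39).

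**Figure D4:**
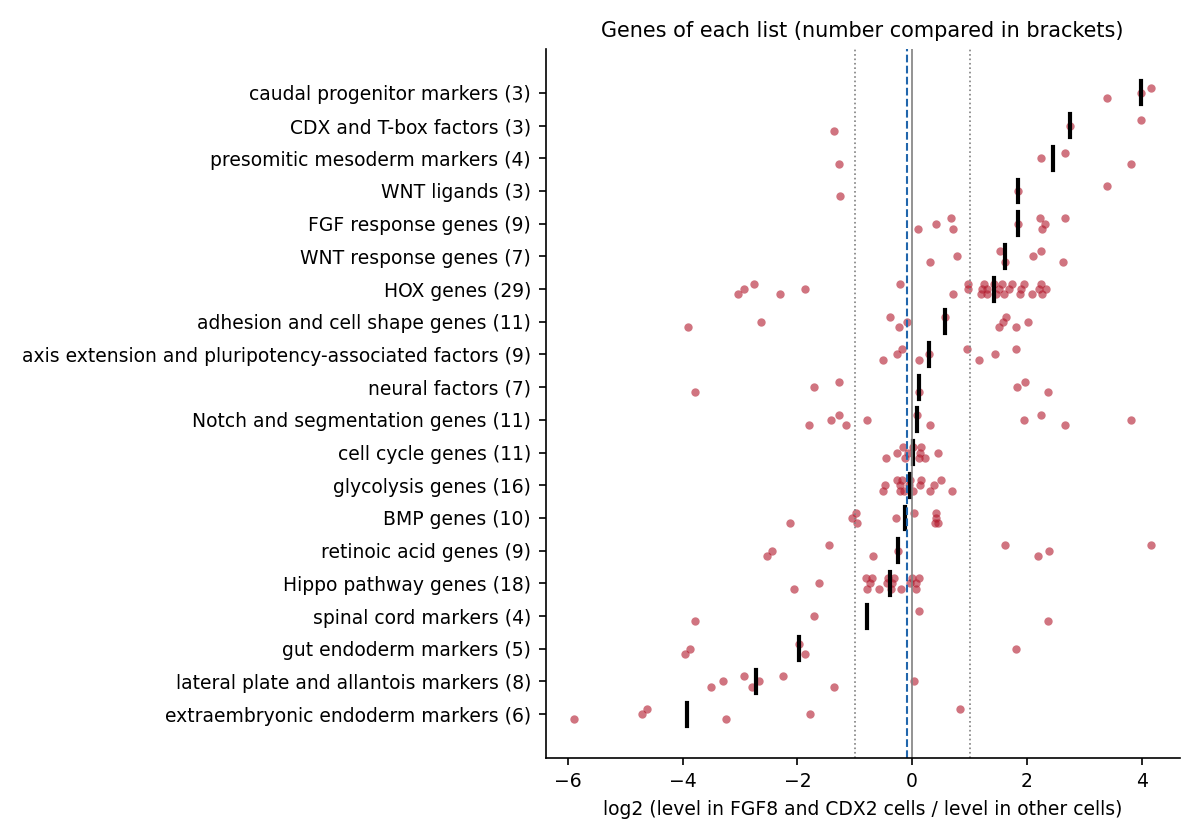
Log2 ratio of each compared gene in the Hulunbuir FGF8 and CDX2 cells over the other kept Hulunbuir cells, by list (number compared in brackets), with the list's median as a black bar, the median of all genes (-0.08) as a dashed line and 2-fold as dotted lines. FGF response (median 1.85), WNT response (1.61) and HOX genes (1.43) lie to the right, glycolysis and cell cycle genes around 0, and lateral plate (-2.73) and extraembryonic endoderm markers to the left.

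When the kept Hulunbuir cells were clustered without the 4 genes of the rule and the 5 further caudal markers, 364 of the 543 cells (67.0%, interval 62.9 to 71.0) fell into 2 of 20 clusters. At lower resolution 378 (69.6%) fell into 1 of 14. Cluster 7 took 209 of them, cluster 9 took 155 and cluster 16 took 93. They made up 47.0%, 43.5% and 41.0% of these clusters, and the remaining cells were scattered, with 21 in cluster 3 and 17 or fewer in each of the others. The 51 cells with TBX6 or MSGN1 lay almost entirely in clusters 7 (32) and 9 (15). Cluster 19, with 17 of the cells (25.8% of that cluster), was led by CER1, DCN, A2M, REG4 and COL1A1. Cluster 4, with 9 of the cells, was led by AHSG and SERPINA1 and cluster 11, with 14, by AHSG and CXCL14. AHSG had 5 UMIs in all 543 cells.

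Clusters 7 and 9 held cells alike in caudal genes and unlike in genes of mitosis, which clustering could use. In the FGF8 and CDX2 cells of clusters 7 and 9, WNT5B was at 289 and 337 CPM and CDX4 at 70.8 and 82.2. TOP2A was at 899 and 88.5 CPM, CDK1 at 89.6 and 13.9 and AURKA at 72.7 and 4.05, while MCM5, of DNA replication, was at 169.6 and 227. Cluster 16 differed otherwise. There SOX2 was at 379.7 CPM, against 65.4 and 61.3 in clusters 7 and 9, DLL3 at 32.2 against 499 and 334, APOA1 at 210.2 against 16.5 and 26.6 and RCN2 at 410.5 against 1756 and 1835. CYP26A1 (40.8), WNT5B (198) and CDX4 (93.0) were present in cluster 16 as well. These levels describe the clusters and are no test of them.

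**Figure D5:**
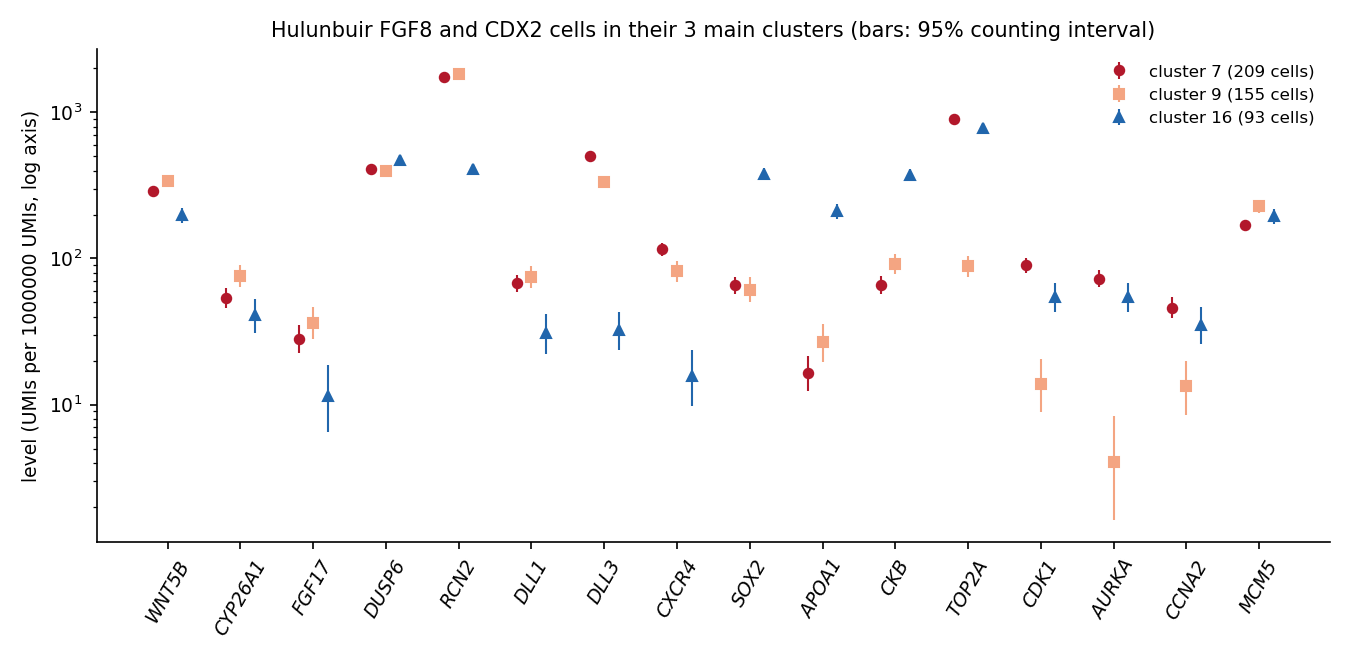
Level in UMIs per 1000000 UMIs (log axis) of 16 genes in the Hulunbuir FGF8 and CDX2 cells of clusters 7, 9 and 16, with 95% counting intervals. Clusters 7 and 9 part at TOP2A (899 and 88.5), CDK1, AURKA and CCNA2, and cluster 16 parts from both at SOX2 (379.7), DLL3 (32.2), CXCR4 and APOA1.

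The 6 Ujumqin cells were too few for a profile and are given one by one where it matters. WNT5B was found in 4 of them, with 18, 20, 7 and 1 UMIs, SOX2 in 5, CYP26A1 in 2 with 6 and 3 UMIs, and T in 1 with 6 UMIs. The cell with T was also the deepest, at 130547 UMIs, and held 32 UMIs of SOX2. WNT5B summed over the 6 cells came to 128 CPM, against 0.875 in the other kept Ujumqin cells. HOX paralog group 9 summed to 142 CPM, against 15.6. Of the 6 cells 3 lay in cluster 19 of the Ujumqin cells, led by KRT7 and S100A5, 2 in cluster 11, led by CRABP1 and COL2A1, and 1 in cluster 1. The cell in cluster 1 had 1 UMI each of FGF8 and CDX2, none of WNT5B or SOX2, a doublet score above 96.1% of kept cells and 33 UMIs of AHSP, an erythroid gene. A second cell had 28 UMIs of AHSP. Erythroid markers summed to 279 CPM over the 6 cells and to 1028 CPM over the other Ujumqin cells. At least 3 extraembryonic endoderm markers were found in 5 of the 6 cells and in 30.65% of the others, at 176 and 4910 CPM. For gut endoderm markers it was 3 of the 6 and 6.16%, at 1048 and 698 CPM. AHSG had 1 to 6 UMIs in each of the 6 cells. The 6 cells were deeper, with a median of 39037 UMIs against 9498.5. The part of these markers in the 6 cells was not tested.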

How the data were processed

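The deposited files hold raw UMI counts per gene and barcode of 1 Chromium 3' v3 library per breed. The authors made these counts with Cell Ranger on the Rambouillet sheep assembly rambouillet_v1.0, pooling embryos before loading, and did not normalize them. The submitters' processing notes name Cell Ranger 3.1.0, Seurat 3.2.0 and R 3.6.1, whereas the header of the deposited matrices names Cell Ranger 5.0.0. Of 26478 features 9808 had no symbol and were used only in totals, a symbol on several features (83) was taken at the first, and 18 of 267 list genes were not analysed here.

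Barcodes with at least 200 genes and under 10% of UMIs on MT- symbols were kept: 14554 of 17059 in Ujumqin and 9583 of 10709 in Hulunbuir. Groups follow the breed label. Levels are summed UMIs of a gene over summed UMIs of the cells, in UMIs per 1000000 UMIs (CPM), so that deep cells weigh more. Log2 ratios carry exact conditional intervals and shares exact binomial (Clopper-Pearson) intervals. PCR duplicates are removed by the UMIs, but cells of 1 pool are not replicates, so intervals cover counting error only. Where a side had 0 UMIs, 3 UMIs were put in its place and the ratio is a bound. Ratios were not formed where both sides had 3 UMIs or fewer, or where such a bound pointed away from the side with UMIs. Genes needed 100 UMIs over the kept Hulunbuir cells, and the genes of the rules stayed out of counts.

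Clusters came from 2000 variable genes, 30 principal components, a shared-neighbour graph of 20 neighbours and the Leiden method. Scrublet's own threshold marked 0 cells in either library and so did not work. Doublets were kept, and the highest scores were left out as an alternative. Named genes were those of the lists, the 15 highest and 10 lowest ratios against the other cells with at least 50 CPM in the higher group, and the 8 at each end for the other comparisons. Genes named for a split, a cluster or a cell were chosen after their values were seen. The cells, lists and comparisons were chosen with earlier results of these data known. Ratios and intervals were tested on simulated counts, which held no spread between cells. There, unchanged genes also reached 2-fold, more of them against the groups of 51 and 122 cells than against the other cells. Python 3.11.15, scanpy 1.11.5, leidenalg 0.10.2, scipy 1.17.1 and matplotlib 3.10.9 were used. Sequences and coordinates are not reported here. Some genes that the naming rule selects are not reported here.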

Additional observations from a re-analysis of the deposited data

Results flagged for a closer look

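For 6 genes the ratio of FGF8 and CDX2 cells over the other cells of their library pointed in opposite directions in the Ujumqin and Hulunbuir libraries, with both counting intervals clear of 0. The difference between the libraries was not tested, since each breed has 1 library and the Ujumqin values rest on 6 cells. ID2, a BMP target, was at a log2 ratio of 1.86 in Ujumqin and -0.98 in Hulunbuir. KRT18 was at 0.53 and -1.98 and KRT8 at 0.78 and -1.87. LIN28B was at 0.56 and -0.18, TOP2A at -0.49 and 0.45, and CLDN7, with 0 UMIs in the Ujumqin cells, at most -0.51 and at 0.57. The level of KRT18 in the other kept cells was 642 CPM in Ujumqin and 3091 in Hulunbuir, so that the sides being compared differed as well.

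Among the 1126 Hulunbuir barcodes that the cell filter removed, 4 met the rule on FGF8, CDX2, TBX6 and MSGN1, with 10.4 to 23.0% of their UMIs on mitochondrial symbols and 1325 to 6028 UMIs. Among the 2505 removed Ujumqin barcodes 0 did.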

How the results depend on the processing

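No paired analysis was possible because each breed has 1 library and the labels give no replicate numbers. For the same reason no library could be left out. Of the shares and counts that answer a comparison, 67 values under other settings stayed near the reported one and 10 did not. The share of kept Hulunbuir cells with FGF8 and CDX2 was 5.18% with no filter on mitochondrial UMIs, 2.17% with at least 2 UMIs of both genes and 3.09% with the rule applied after thinning to 5000 UMIs. The share with SOX2 and T was 12.0% with at least 2 UMIs of both rule genes, 1.72% thinned to 5000 UMIs and 0.558% thinned to 2000. Genes at least 2-fold higher than in the other cells numbered 411, but 777 among genes with at least 20 UMIs and 1171 among all genes with a symbol. Against the cells with TBX6 or MSGN1, the rule after thinning gave 292 higher and 809 lower genes in place of 516 and 336, of 4782 genes in place of 7044. The cause was not tested. Among named genes at least 2-fold different, some setting brought 14 under 2-fold against the other cells, 15 against the cells with TBX6 or MSGN1 and 18 against the neural cells.

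Of the values of single genes and lists, 3896 stayed within their counting interval, 492 did not and 7 took the other sign. Against the cells with TBX6 or MSGN1, the rule after thinning gave IRX3 -1.24, MCM3 -0.036, HOXA11 -0.10 and a median of -0.30 for spinal cord markers. With both groups limited to clusters 7 and 9, a setting chosen after seeing the data, IRX3 and FN1 stood at -0.0043. Without the highest doublet scores, AMOT stood at -0.13 against the neural cells. The cause of these was not tested. Depth limits what is said of WNT3A, NKX1-2, T and the 51 cells, which rest on few UMIs.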

Other observations

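Cells with HES7 (67 of the 543) were set beside the 476 without it. The ratio of DLK1, a Notch-related transmembrane protein, stood apart at a log2 value of 2.71, but 25 of its 26 UMIs beside HES7 came from 1 cell and 2 of the 67 cells had any. IL17RD (0.70, interval 0.25 to 1.13) and LSAMP (0.47, interval 0.26 to 0.68) were higher beside HES7, and COL1A1 (-1.37, interval -1.94 to -0.85) was lower. Most COL1A1 UMIs came from the cells outside clusters 7, 9 and 16, as given above.

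APOA1, an apolipoprotein of liver and yolk sac, held 473 of the 494 UMIs of the extraembryonic endoderm markers in the FGF8 and CDX2 cells. It was at 59.2 CPM there against 204 in the other cells, in 33.5% of the cells, while AHSG, AFP and APOA2 had 5, 1 and 4 UMIs and TTR had 0, and FGB had 11. In the endothelial cells APOA1 was found in 97.5%. Within the FGF8 and CDX2 cells it went with SOX2 and with cluster 16, as given above.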
